A study of Homo sapiens with 24 samples.

Results

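Caspases are the cysteine proteases that carry out apoptosis and the inflammatory form of cell death called pyroptosis, and the expression of 7 of their genes was compared between cell lines and after treatment with Ocoxin. The 7 genes were CASP1, CASP2, CASP4, CASP6, CASP8, CASP9 and CASP10, found by symbol among the 58051 genes of the count tables, and other caspases were not analysed here. Of the 7, CASP1 and CASP4 are inflammatory caspases, and the other 5 act in apoptosis. The data were 24 RNA-seq libraries, 3 control and 3 Ocoxin libraries for each of 4 lines of human cancer cells. The lines were SW620 for colorectal adenocarcinoma (COAD), BxPC-3 for pancreatic adenocarcinoma (PAAD), LNCaP for prostate adenocarcinoma (PRAD) and HCC-70 for triple negative breast cancer (TNBC), so each cancer was represented by a single line. Ocoxin, a nutritional supplement that combines extracts of plants with vitamins, amino acids and minerals, was given for 48 h at a 700-fold dilution in COAD and TNBC, 500-fold in PAAD and 50-fold in PRAD, so the doses differed between lines. All cells were grown in medium with 10% FBS (fetal bovine serum). Controls and treated cells were then kept in medium with 1% FBS during the treatment, and only RNA of cells that were still attached was collected. The labels give the dilution for controls too, so controls were identified by the letter C of their titles. Nothing in the labels says that replicates came from separate cultures, so the p-values measure the spread between these libraries, which may be technical.

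Caspases are made as inactive precursors and cut their targets after an aspartate residue. Initiator caspases are activated when adaptor proteins bring their precursors together, and executioner caspases are activated by a cut from an initiator. CASP8 and CASP10 are the initiators recruited to death receptors at the cell surface, CASP9 is the initiator of the apoptosome that forms once cytochrome c leaves the mitochondria, and CASP2 is the initiator of the PIDDosome, which responds to DNA damage and to extra centrosomes. CASP6 is an executioner that cuts nuclear lamins. CASP1 is activated by inflammasomes and matures interleukin-1 beta and interleukin-18, while CASP4 binds bacterial lipopolysaccharide inside the cell and cuts gasdermin D. Because they are activated by cleavage, the amount of caspase mRNA is not a measure of caspase activity.

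The proteins share a catalytic cysteine, and the 27 coding bases around its codon are shown because they are the family's shared signature. They were read from hg38 with the GENCODE release 44 transcripts, 5′ to 3′ on the coding strand, with the cysteine codon in capitals:
CASP1: atcatccaggccTGCcgtggtgacagc
CASP4: attgtccaggccTGCagaggtgcaaac
CASP2: ttcatccaggccTGCcgtggagatgag
CASP9: ttcatccaggccTGTggtggggagcag
CASP8: tttattcaggctTGTcagggggataac
CASP10: ttcatccaggccTGCcaaggtgaagag
CASP6: atcattcaggcaTGTcggggaaaccag
The most alike pair of these stretches was CASP2 and CASP10, with 23 of 27 bases identical, and the least alike was CASP4 and CASP6, with 14 of 27. The inflammatory pair, CASP1 and CASP4, shared 20 bases, and the death receptor pair, CASP8 and CASP10, shared 18. The stretch lies in a single exon in CASP8 (chr2:201285079-201285105, plus strand, exon 8 of 9) and in CASP10 (chr2:201209336-201209362, plus strand, exon 9 of 10), and it spans an exon junction in the other 5 genes.

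In the hg38 coordinates of the tables, CASP10 (ENSG00000003400, chr2:201182881-201229406) and CASP8 (ENSG00000064012, chr2:201233443-201287711) are neighbours on the plus strand. CASP4 (ENSG00000196954, chr11:104942866-104969436) and CASP1 (ENSG00000137752, chr11:105025443-105035250) are near each other on the minus strand. The remaining genes lie alone: CASP2 (ENSG00000106144, chr7:143288215-143307696, plus strand), CASP6 (ENSG00000138794, chr4:109688622-109703583, minus strand) and CASP9 (ENSG00000132906, chr1:15490832-15526534, minus strand). Reads were counted without regard to strand, and CASP6 shares 105 exonic bases with MCUB and CASP9 shares 106 with CELA2B, both on the opposite strand, so reads there cannot be told apart.

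Libraries held 25160757 to 34397801 counts in COAD, 31101178 to 34231106 in PAAD, 36863490 to 39009959 in TNBC and 9063968 to 9520969 in PRAD. PRAD was counted in another run, so its levels are given beside the others and were not tested against them. Levels are given in CPM, read counts scaled to the library size with TMM. Of the markers listed for each cancer, VIL1 in COAD (526 CPM), KRT17 in PAAD (2344), KLK3 in PRAD (403) and KRT16 in TNBC (952) had their highest mean in the line of that label. KRT5, listed for TNBC, was at 3133 CPM in PAAD and 1600 in TNBC, and KRT19, listed for PAAD, was at 1292 in PAAD and 1530 in TNBC, so neither set these lines apart. Other listed markers were higher in another line. KRT81, listed for TNBC, was at 0.97 there and 10.7 in COAD. KRT20 and LGALS4, listed for COAD, were at 0.0389 and 0.673 there and at 1.26 and 3.64 in PRAD. MUC1, listed for PAAD, was at 88.1 there and 311 in TNBC. The remaining markers listed for a cancer had their highest mean in the line of that label. The leukocyte gene PTPRC had a mean of at most 0.0718 CPM in any line, yet CD14 was at 134 in TNBC, and COL1A1 and VWF were at 51.1 and 78.2 in PRAD. In bulk RNA, fewer cells with a transcript and less transcript per cell cannot be told apart.

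Without treatment, the lines differed most in the inflammatory CASP1 and in the initiator CASP10. CASP1 was among the most expressed caspases in PAAD and TNBC and close to undetected in COAD and PRAD, and CASP10 was also far higher in PAAD and TNBC than in COAD. CASP2 had the opposite order, with its highest level in COAD. The difference between controls was tested in a fit of the 9 control libraries of COAD, PAAD and TNBC with the quasi-likelihood test of edgeR, adjusted by Benjamini-Hochberg over 19930 genes, and the 3 comparisons between lines share libraries. A gene was called different at an adjusted p under 0.05. Between lines of different origin most genes differed, 78.6% between COAD and PAAD, 82.8% between COAD and TNBC and 77.1% between PAAD and TNBC, and 6, 7 and 5 of the 7 caspases were called. For PAAD against COAD, 5 caspases were higher and 1 lower (38.4% and 40.2% of all genes), for TNBC against COAD 6 and 1 (40.5% and 42.4%), and for TNBC against PAAD 4 and 1 (37.4% and 39.7%). With 7 genes and such shares, a call says little about the caspases, and the levels themselves are described below.

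**Figure D1:**
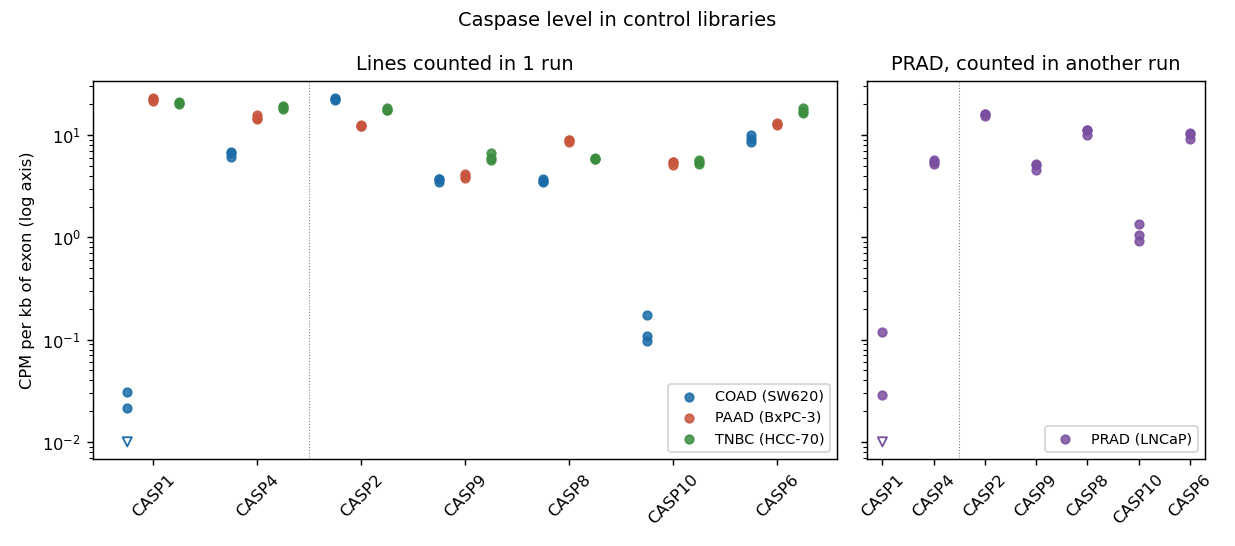
Level of each caspase in every control library, in CPM per kb of exonic length on a log axis, with inflammatory caspases to the left of the dotted line. Left, COAD, PAAD and TNBC, scaled together over 9 controls. Right, PRAD, scaled alone. Open triangles mark libraries at 0. CASP1 and CASP10 stand far lower in COAD than in PAAD and TNBC, while CASP2 is highest in COAD.

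Among the inflammatory caspases, CASP1 was at 22.6, 21.5 and 22.9 CPM per kb in the PAAD controls and at 20.1, 21.1 and 20.4 in the TNBC controls. In the COAD controls it had 0, 3 and 4 counts. All PAAD and TNBC libraries were far above all COAD libraries. The mean in PAAD was 1284 times that in COAD (95% counting interval 623 to 3193) and the mean in TNBC 1178 times (572 to 2931), with an interval that covers counting error of the 7 COAD counts only and is too narrow because a fragment mostly gave 2 counts. The difference between PAAD and TNBC did not pass the test (log2 difference TNBC minus PAAD −0.12, 95% interval −0.27 to 0.02, adjusted p = 0.116 with edgeR), although DESeq2 called it (adjusted p = 0.0423), and the sign turned with a correction for gene length and GC content, in which the trend of the counts with both was subtracted (0.20, adjusted p = 0.00396). CASP4 was at 6.74, 6.12 and 6.86 CPM per kb in COAD, 15.8, 14.8 and 14.2 in PAAD, and 17.9, 18.9 and 19.3 in TNBC. No group overlapped another, and the log2 differences were 1.19 for PAAD minus COAD (SE 0.0626, adjusted p = 9.21e-14 with edgeR), 1.51 for TNBC minus COAD (adjusted p = 9.06e-16) and 0.32 for TNBC minus PAAD (adjusted p = 4.96e-05).

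Of the initiators, CASP2 was at 22.8, 22.2 and 22.5 CPM per kb in COAD, 12.2, 12.2 and 12.6 in PAAD and 17.6, 18.4 and 17.4 in TNBC. COAD was highest and PAAD lowest without overlap, and the log2 difference PAAD minus COAD was −0.87 (SE 0.0516, adjusted p = 7.96e-13 with edgeR). CASP8 was at 3.45, 3.69 and 3.59 in COAD, 8.56, 8.99 and 8.98 in PAAD and 6.0, 5.82 and 5.89 in TNBC, on the same scale. Here PAAD was highest, by a log2 difference of 1.30 over COAD (adjusted p = 2.74e-14 with edgeR), and TNBC was 0.58 lower than PAAD (log2 difference −0.58, adjusted p = 2.05e-08). CASP10, its neighbour on chromosome 2, was at 0.107, 0.0969 and 0.173 CPM per kb in COAD, from 28, 28 and 46 counts. It was at 5.13, 5.41 and 5.44 in PAAD and 5.19, 5.45 and 5.71 in TNBC, again on this scale. The PAAD and TNBC libraries overlapped (log2 difference TNBC minus PAAD 0.03, 95% interval −0.14 to 0.21, adjusted p = 0.731 with edgeR), and COAD was lower than both, by 42.4-fold and 43.4-fold. CASP9 was at 3.51, 3.73 and 3.68 in COAD, 3.82 to 4.13 in PAAD and 5.68 to 6.61 CPM per kb in TNBC. TNBC was above both, with a log2 difference over COAD of 0.74 (adjusted p = 2.01e-08 with edgeR), and the COAD and PAAD difference of 0.12 did not pass the test (95% interval −0.05 to 0.29, adjusted p = 0.178).

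The executioner CASP6 was at 9.20, 8.58 and 10.0 CPM per kb in COAD, 12.7, 13.1 and 12.6 in PAAD and 18.3, 17 and 16.4 in TNBC. The lines stood in that order with no overlap, with log2 differences of 0.47 for PAAD minus COAD (SE 0.0816, adjusted p = 2.23e-05 with edgeR) and 0.43 for TNBC minus PAAD (adjusted p = 3.93e-05). The correction for length and GC content moved several of these differences, with the median of all genes for PAAD minus COAD going from −0.04 to −0.19. For PAAD minus COAD it gave 0.72 for CASP4, 0.84 for CASP8 and 0.21 for CASP6, for TNBC minus COAD −0.56 for CASP2 and 0.48 for CASP8, and for TNBC minus PAAD 0.55 for CASP4 and −0.36 for CASP8, all still called. Over all the alternative fits, CASP2 for PAAD minus COAD ranged from −1.22 to −0.83. CASP6 for TNBC minus PAAD ranged from 0.39 to 0.64, and both were called in 14 of 14 fits.

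Within each line, scaled by itself, the order of the caspases by CPM per kb also differed. In COAD controls CASP2 led with 24.8, followed by CASP6 at 10.2, CASP4 at 7.25, CASP9 at 4.01 and CASP8 at 3.95, whose libraries overlapped, then CASP10 at 0.138 and CASP1 at 0.0191. PRAD was similar in its leading gene and in its last, with CASP2 at 15.7, CASP8 at 10.8 and CASP6 at 9.96 overlapping, CASP4 at 5.46 and CASP9 at 4.98 overlapping, CASP10 at 1.11 and CASP1 at 0.0490, from 0 to 4 counts per library. PAAD was led by CASP1 at 21, CASP4 at 14, CASP6 at 12 and CASP2 at 11.6, with CASP8 at 8.30, CASP10 at 5.00 and CASP9 at 3.72. No neighbours overlapped there, but the lowest CASP6 library and the highest CASP2 library were both at 11.9. TNBC was led by CASP1 at 20.3, then CASP4 at 18.5, CASP2 at 17.6 and CASP6 at 17.1, which overlapped from one to the next, and CASP9 at 6.0, CASP8 at 5.84 and CASP10 at 5.39, of which the first pair overlapped. Among all genes tested in its line, CASP2 stood at percentile 86.4 of CPM per kb in COAD, while CASP10 stood at percentile 4.46 there and 53.6 in PAAD.

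Summed over genes, the inflammatory CASP1 and CASP4 made up 14.7%, 13.8% and 14.7% of the CPM per kb of the 7 caspases in COAD controls and 10.8%, 11.9% and 11.7% in PRAD controls. In PAAD controls they made up 47.3%, 45.5% and 46.1% and in TNBC controls 41.7%, 42.9% and 43.7%. COAD and PRAD did not overlap PAAD and TNBC. The log2 ratio of apoptotic to inflammatory level was 2.57 in COAD, 2.95 in PRAD, 0.21 in PAAD and 0.42 in TNBC, and without CASP1 it was 1.53 in PAAD and 1.49 in TNBC.

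Next, the effect of Ocoxin was examined within each line, with edgeR on the 3 control and 3 Ocoxin libraries. In COAD, 1 of 6 caspases tested was called (CASP2, lower), where 2.55% of all genes tested were called at an adjusted p under 0.05, 1.47% higher and 1.09% lower. In PAAD, 2 of 7 were called (CASP1 and CASP4, both lower) against 8.33% of all genes (4.72% higher and 3.62% lower). In PRAD the count was 0 of 6 against 2.98% (2.4% higher and 0.58% lower). In TNBC, 4 of 7 were called (CASP2 higher, and CASP1, CASP6 and CASP10 lower) against 21% of all genes (9.65% higher and 11.3% lower). CASP1 did not pass the filter on low counts in COAD, where it had 0 to 6 counts per library, and in PRAD, where it had 0 to 4. The median log2 fold change of the caspases that passed the filter lay between −0.05 (TNBC) and 0.11 (PRAD), and that of all genes between −0.01 and 0.01. The called changes were small: CASP2 in TNBC was 11.7% higher, and the called decreases fell by 11.2% (CASP1 in TNBC) to 20.3% (CASP6 in TNBC). In PRAD, 3 of 6 caspases had an unadjusted edgeR p under 0.05, as did 20.8% of all genes. DESeq2 called no caspase there, and 1.86% of 33271 genes with any count.

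**Figure D2:**
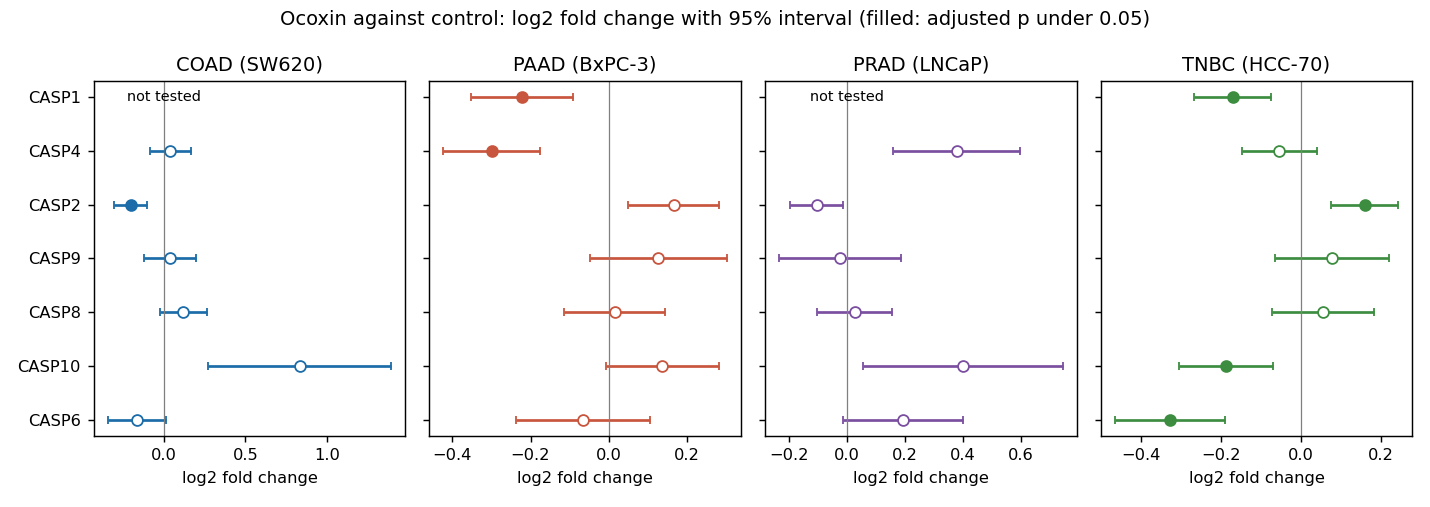
Log2 fold change of Ocoxin against control for each caspase and cell line, from edgeR, with bars for the 95% interval (n = 3 and 3 libraries) and filled points for an adjusted p under 0.05. CASP2 lies on opposite sides of 0 in COAD and TNBC, and CASP1 is filled and below 0 in PAAD and TNBC. The horizontal axes differ between panels.

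The inflammatory caspases were downregulated in PAAD. CASP4 was at 107, 101 and 97.6 CPM in PAAD controls and at 82.5, 84.5 and 81.0 after Ocoxin. All treated libraries were below all controls, and the log2 fold change was −0.30 (SE 0.0583, adjusted p = 0.00500 with edgeR), a decrease that was called without each of the 6 libraries in turn. CASP1 was at 77.9, 74.7 and 80.1 CPM in PAAD controls and 64.0, 65.8 and 69.5 after Ocoxin. Again the groups did not overlap, and it fell by 0.22 on the log2 scale (SE 0.0611, adjusted p = 0.0345 with edgeR). That call was lost without control 1 (adjusted p = 0.0729), control 2 (0.0601), Ocoxin 1 (0.162) or Ocoxin 2 (0.150).

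In TNBC, CASP1 was at 73.3, 77.3 and 74.4 CPM in controls and at 66.6, 68.1 and 65.2 after Ocoxin. The treated libraries were all lower, with a log2 fold change of −0.17 (SE 0.0449, adjusted p = 0.0174 with edgeR), and the call was lost without control 2 (adjusted p = 0.0666) or Ocoxin 1 (0.0646). CASP4 in TNBC was at 128, 136 and 138 CPM in controls and 125, 134 and 129 after Ocoxin, which overlapped, and its log2 fold change of −0.05 did not pass (95% interval −0.15 to 0.04, adjusted p = 0.421 with edgeR), except with the correction for length and GC content and the replicate block together (0.0171). In COAD, CASP4 was at 54.3, 49.3 and 54.2 CPM in controls and 54.6, 54.2 and 53.5 after Ocoxin, with a log2 fold change of 0.04 (95% interval −0.09 to 0.17, adjusted p = 0.804). In PRAD, CASP4 was at 37.9, 39.5 and 41.5 CPM in controls and at 58.1, 51.1 and 45.5 after Ocoxin. The treated libraries were all above the controls but spread widely, and the log2 fold change of 0.38 (95% interval 0.16 to 0.60) had an adjusted p of 0.0774 with edgeR. It was called without Ocoxin 3 (adjusted p = 0.0462), with no filter on low counts (0.010), and with the correction for length and GC content fitted with the replicate number as a block (0.0309).

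**Figure D3:**
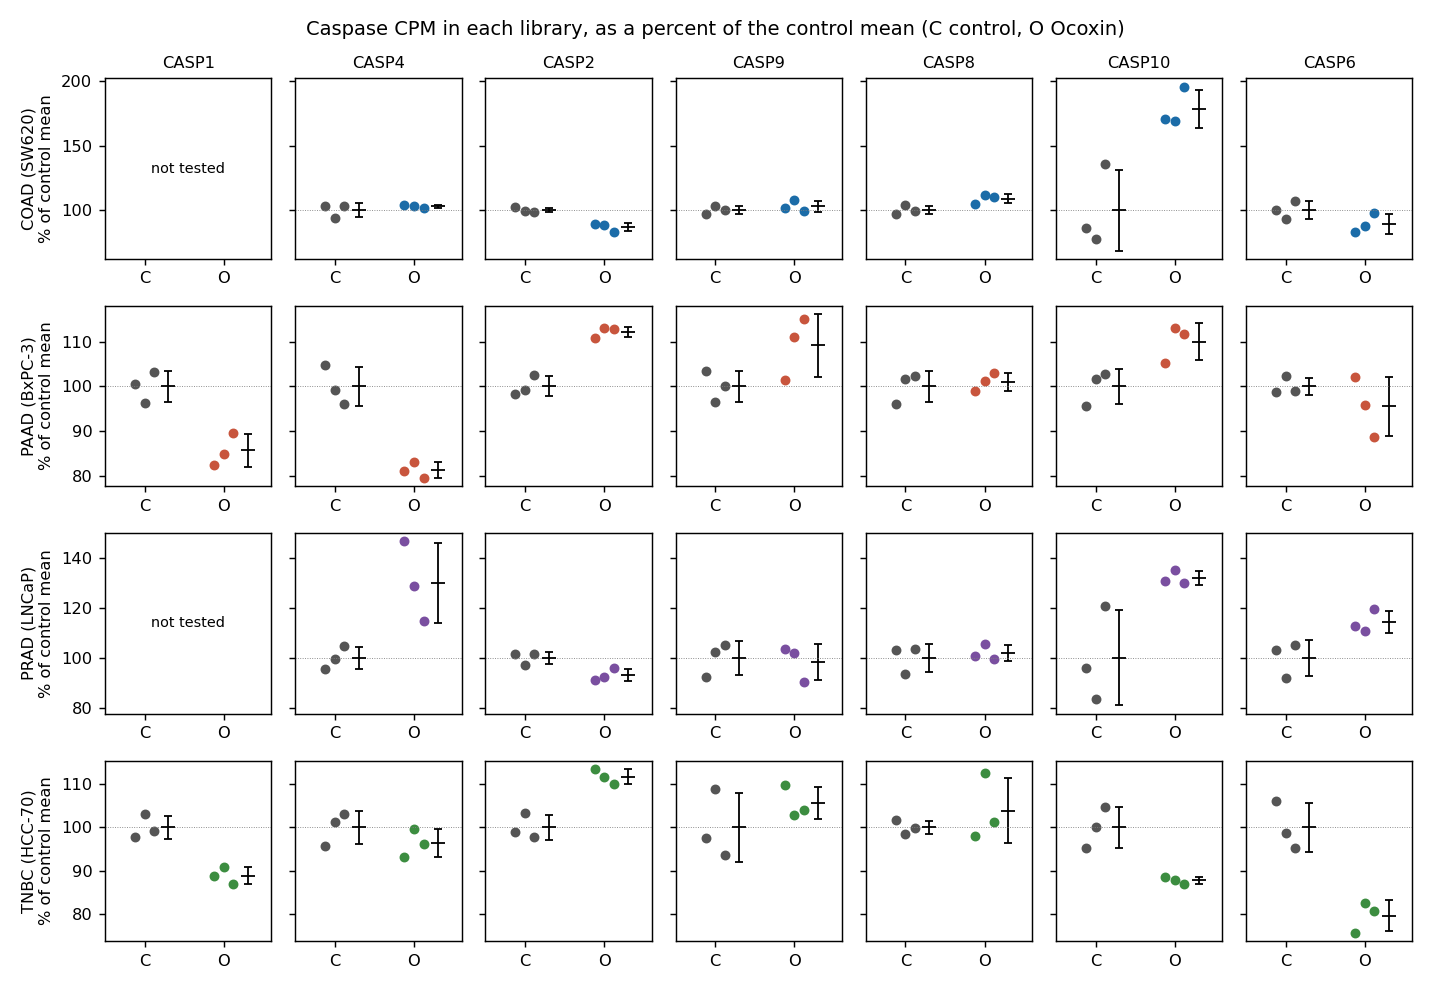
CPM of each caspase in every library, as a percent of the mean of the controls of the same line, with C for control, O for Ocoxin, and a cross bar for the mean ± SD of 3 libraries. CASP4 and CASP1 in PAAD, CASP1, CASP6 and CASP10 in TNBC and CASP2 in COAD show treated libraries below all controls. So does CASP2 in PRAD, which was not called. Axes differ between rows, and CASP1 was not tested in COAD and PRAD.

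CASP2, the PIDDosome initiator, was altered in opposite directions. It was at 203, 198 and 197 CPM in COAD controls and at 177, 177 and 165 after Ocoxin. Every treated library was below every control, with a log2 fold change of −0.20 (SE 0.0483, adjusted p = 0.0257 with edgeR), which was lost without control 1 (adjusted p = 0.184), control 2 (0.131), Ocoxin 2 (0.129) or Ocoxin 3 (0.104). In TNBC it was at 139, 146 and 138 CPM in controls and at 160.1, 157 and 155 after Ocoxin. Here all treated libraries were higher, by a log2 fold change of 0.16 (SE 0.0386, adjusted p = 0.0113 with edgeR). The TNBC call was lost without Ocoxin 1 (adjusted p = 0.0622) and with a correction for gene length (0.0692) or for length and GC content (0.0962), and it was kept when the latter was fitted with the replicate block (0.00924).

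In PAAD, CASP2 was at 91.2, 92.0 and 95.1 CPM in controls and 103, 105 and 105 after Ocoxin. The groups did not overlap, yet its log2 fold change of 0.17 (95% interval 0.05 to 0.28) had an adjusted p of 0.0769 with edgeR. With the replicate number as a block, which pairs the PAAD libraries, the adjusted p was 0.00326, and with the correction for length and GC content it was 0.0230. In PRAD, CASP2 was at 128, 122 and 128 CPM in controls and 115, 116 and 121 after Ocoxin, with a log2 fold change of −0.10 (95% interval −0.19 to −0.01, adjusted p = 0.191 with edgeR). Corrected for gene length this value was −0.18 (adjusted p = 0.0403), and corrected for length and GC content with the replicate block it was −0.19 (0.00118).

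The responses of the death receptor initiators CASP8 and CASP10 were not tested against each other. CASP8 was not called in any line, and its log2 fold change was largest in COAD (0.12, 95% interval −0.02 to 0.26). It was 0.05 for TNBC (−0.07 to 0.18), 0.03 for PRAD (−0.10 to 0.16) and 0.01 for PAAD (−0.11 to 0.14), with edgeR adjusted p from 0.408 to 0.916. Its controls and treated libraries overlapped in PAAD, PRAD and TNBC. In COAD they did not, at 27.8, 29.7 and 28.3 CPM in controls and 30.0, 32.0 and 31.4 after Ocoxin.

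CASP10 was at 39.0, 40.9 and 42.9 CPM in TNBC controls and at 36.3, 36.0 and 35.6 after Ocoxin. All treated libraries were lower, with a log2 fold change of −0.19 (SE 0.0542, adjusted p = 0.0270 with edgeR), and the call was lost without control 2 (adjusted p = 0.0710), control 3 (0.0955), Ocoxin 1 (0.0737) or Ocoxin 2 (0.0813). In COAD it was at 0.907, 0.818 and 1.43 CPM in controls and at 1.79, 1.78 and 2.06 after Ocoxin, from 28 to 54 counts per library. The treated libraries were all higher, but control 3 lay well above the other controls, and the log2 fold change of 0.83 (95% interval 0.27 to 1.39) had an adjusted p of 0.110 with edgeR, which became 0.0307 without control 3, with a log2 fold change of 1.12. In PRAD, CASP10 was at 8.07, 7.02 and 10.2 CPM in controls and 11, 11.4 and 11 after Ocoxin, with a log2 fold change of 0.40 (95% interval 0.06 to 0.75, adjusted p = 0.179 with edgeR). In PAAD the value was 0.14 (−0.01 to 0.28, adjusted p = 0.243).

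CASP9, the apoptosome initiator, was not called in any line either, with log2 fold changes from −0.02 (PRAD) to 0.13 (PAAD) and intervals that all held 0. Its adjusted p ranged from 0.392 to 0.924 with edgeR.

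CASP6, the executioner, was downregulated in TNBC. It was at 35.2, 32.7 and 31.5 CPM in controls and at 25.1, 27.4 and 26.8 after Ocoxin, with no overlap. The log2 fold change was −0.33 (SE 0.0634, adjusted p = 0.00328 with edgeR), and it was called without each of the 6 libraries in turn. In COAD its log2 fold change was −0.16 (95% interval −0.34 to 0.02, adjusted p = 0.372), in PAAD −0.07 (−0.24 to 0.11, adjusted p = 0.677) and in PRAD 0.19 (−0.01 to 0.40, adjusted p = 0.270), none of which passed.

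CASP4 and CASP6 carried the calls that were kept without each library, so the 250 bases before a RefSeq start of each (build GRCh38.p14, both minus strand, 5′ to 3′) are shown, with matches to searched motifs in capitals. The CASP4 stretch is chr11:104968575-104968824 and the CASP6 stretch chr4:109703446-109703695:
CASP4: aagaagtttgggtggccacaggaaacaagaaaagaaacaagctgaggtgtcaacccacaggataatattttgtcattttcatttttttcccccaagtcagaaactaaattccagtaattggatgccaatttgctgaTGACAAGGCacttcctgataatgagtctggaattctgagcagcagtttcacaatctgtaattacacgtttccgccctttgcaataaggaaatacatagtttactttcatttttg
CASP6: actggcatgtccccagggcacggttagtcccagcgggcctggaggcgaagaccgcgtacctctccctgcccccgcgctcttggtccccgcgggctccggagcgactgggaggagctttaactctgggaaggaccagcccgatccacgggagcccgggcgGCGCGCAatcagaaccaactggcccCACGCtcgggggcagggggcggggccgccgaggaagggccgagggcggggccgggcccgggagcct
The CASP4 stretch was 38.0% GC with 2 CpG dinucleotides, and the CASP6 stretch was 74.0% GC with 26. The motifs searched on both strands were the interferon motifs GAS (TTCNNNGAA) and ISRE, the antioxidant response core ARE (TGACNNNGC), the xenobiotic response core XRE (GCGTG) and the metal response cores TGCACNC and TGCGCNC. CASP4 had a match to the ARE core 114 bases before the start, a motif that 10.9% of 35114 promoter stretches of this length hold. CASP6 had a match to the XRE core 66 bases before the start, found in 32.2% of stretches, and to TGCGCNC 91 bases before it, found in 16.8%. These are matches of letters only. RefSeq promoter sequences were found for 5 of the 7 genes, without CASP1 and CASP10.

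Whether the response differed between lines was tested with an interaction contrast in edgeR on the 18 libraries of COAD, PAAD and TNBC. The 3 contrasts share libraries. Of all genes tested, 3.96% were called for PAAD minus COAD (2% higher and 1.96% lower), 7.85% for TNBC minus COAD (3.39% and 4.46%) and 4.56% for TNBC minus PAAD (1.8% and 2.75%), and of the 7 caspases 3, 2 and 0. The response of CASP2 was higher in PAAD than in COAD by 0.36 on the log2 scale (SE 0.0653, adjusted p = 0.00156) and higher in TNBC than in COAD by 0.36 (SE 0.0646, adjusted p = 0.000653), and both were called without each of 12 libraries. CASP4 responded lower in PAAD than in COAD (difference −0.35, SE 0.0786, adjusted p = 0.00871 with edgeR), also called without each of 12 libraries. CASP10 responded lower in TNBC than in COAD (difference −1.02, SE 0.193, adjusted p = 0.000976), called without each of 12 libraries, and lower in PAAD than in COAD (difference −0.70, SE 0.194, adjusted p = 0.0346), called without 6 of 12. The latter was lost without COAD control 1 (adjusted p = 0.136), COAD control 2 (0.184), COAD Ocoxin 2 (0.0588), COAD Ocoxin 3 (0.126), PAAD control 2 (0.0541) or PAAD Ocoxin 1 (0.0627), and with counts halved (0.0887). Both CASP10 differences rest on the low counts of COAD. The responses of CASP1, CASP6, CASP8 and CASP9 were not called different between any pair of lines, and those of CASP1 against COAD rest on 0 to 6 counts per COAD library.

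Between PAAD and TNBC, 0 of 7 responses were called by edgeR and 3 had an unadjusted p under 0.05, as did 16.9% of all genes. DESeq2 called 2 of the caspases and 1561 of 37124 genes with any count (4.2%). The main edgeR fit called 960 of the 21068 genes that passed the filter on low counts (4.56%), so the 2 shares have unlike bases. With the replicate block edgeR called 2 caspases and 12.5% of all genes. For CASP4 the difference TNBC minus PAAD was 0.25 (95% interval 0.09 to 0.41, adjusted p = 0.0558 with edgeR, and 0.00289 with the replicate block), and CASP10 had a difference of −0.32 (−0.54 to −0.10, adjusted p = 0.0841, and 0.00720 with the block). Without PAAD control 3 the CASP4 difference was called (adjusted p = 0.0408). For CASP2 the responses of PAAD and TNBC had a difference of 0.00 (95% interval −0.14 to 0.13).

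After Ocoxin, the share of CASP1 and CASP4 in the summed CPM per kb was 40.4%, 40.8% and 41.6% in PAAD, below all 3 controls, and 15.8%, 14% and 12.7% in PRAD, above all 3 controls. It was 16.2%, 15.8% and 15.9% in COAD, above the controls, and 41.4%, 41.9% and 41.5% in TNBC, where the groups overlapped. On the log2 scale, the ratio of apoptotic to inflammatory level differed between Ocoxin and control by 0.32 in PAAD, by −0.34 in PRAD, by −0.18 in COAD and by 0.07 in TNBC. No test was made on this sum over the members. Without CASP2 the differences were −0.0876 in COAD and −0.0445 in TNBC. The TNBC difference was also 0.0115 without CASP1, 0.193 without CASP6 and 0.135 on sums of CPM not divided by length.

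**Figure D4:**
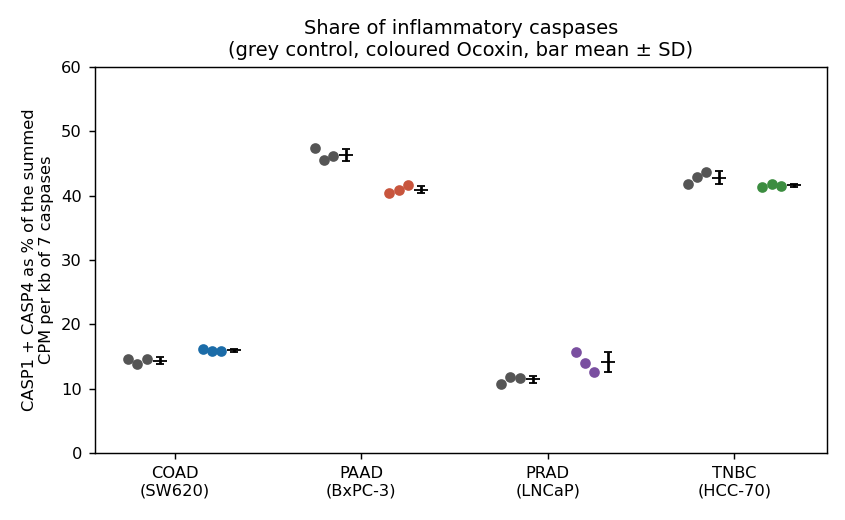
Share of CASP1 and CASP4 in the summed CPM per kb of the 7 caspases, in percent, for each library (points), with the mean ± SD of 3 libraries as a cross bar. PAAD and TNBC libraries lie above 40% and COAD and PRAD libraries below 17%, and the treated PAAD libraries lie below the PAAD controls.

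The genes that act with caspases were described from 8 lists of 52 genes (death receptors and their adaptors, the apoptosome, the PIDDosome, IAP inhibitors, apoptotic substrates, inflammasome genes, inflammatory substrates and interferon regulators). In COAD 44 of them were tested and 3 were higher and 1 lower, in PAAD 44 with 3 higher and 3 lower, in PRAD 38 with 1 higher and 0 lower, and in TNBC 43 with 8 higher and 5 lower. In TNBC, where 21% of all genes were called, 13 of 43 is read against that share, and the other lines against 2.55% for COAD, 8.33% for PAAD and 2.98% for PRAD. Their median log2 fold change was between −0.01 and 0.03 in the 4 lines. Of these 24 calls, 22 were refitted under the alternatives, at most 3 for each list and line, and 7 of the 22 were called without each library in turn.

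**Figure D5:**
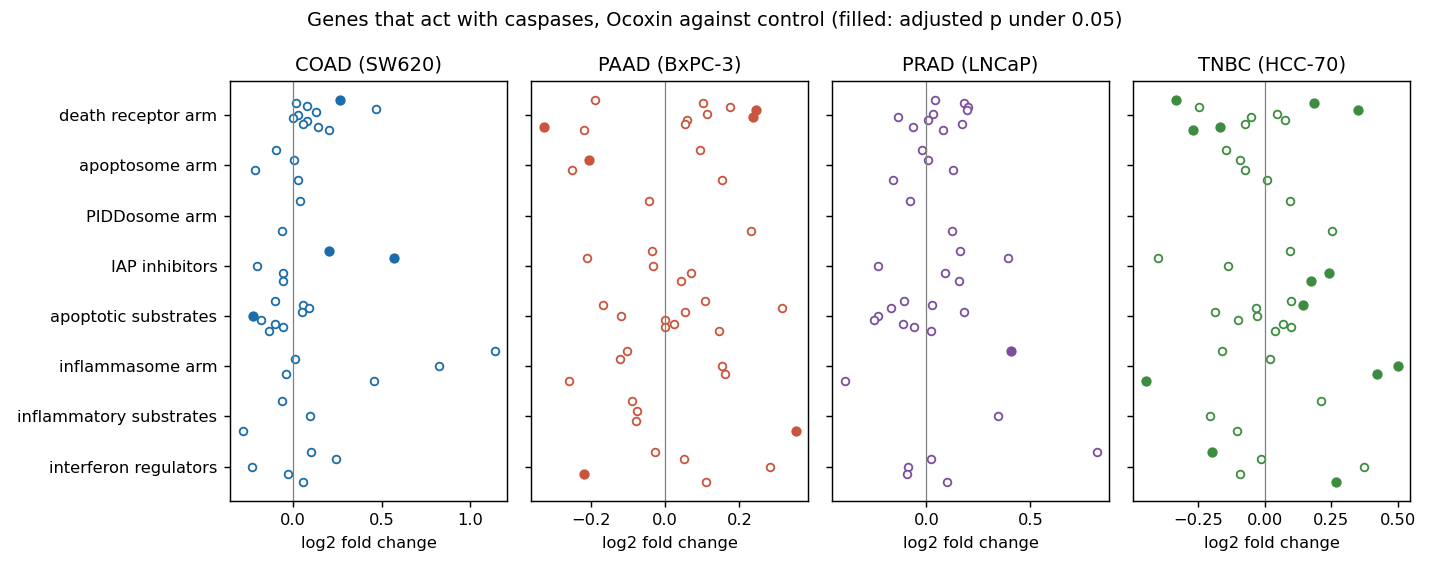
Log2 fold change of Ocoxin against control for the genes tested in each of the 8 lists, with 1 point for each gene and filled points for an adjusted p under 0.05 with edgeR. Most points are open in COAD, PAAD and PRAD, and 13 are filled in TNBC. The horizontal axes differ between panels.

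Among the inhibitors and death receptor genes, BIRC3, an IAP that acts as a ubiquitin ligase in TNF receptor signalling, was upregulated in COAD, at 23.2, 23.9 and 22.7 CPM in controls and 32.5, 36.2 and 34.7 after Ocoxin (log2 fold change 0.57, adjusted p = 6.80e-05 with edgeR). In PAAD, TNFSF10, the death ligand TRAIL, was at 234, 199 and 203 CPM in controls and 176, 178 and 152 after Ocoxin (−0.33, adjusted p = 0.0114), a call lost with the correction for length and GC content (0.115). TNFSF10 was also lower in TNBC (−0.17, adjusted p = 0.00287 with edgeR), and CFLAR, an inhibitor of CASP8 activation, was higher there (0.19, adjusted p = 0.00743). Both TNBC calls fall outside the limit of 3 for each list and line, were added after their values were seen and were not refitted without single libraries. In TNBC, BID, the protein that CASP8 cuts to reach the mitochondria, was at 102, 113 and 105 CPM in controls and 88.5, 84.6 and 81.7 after Ocoxin (−0.33, adjusted p = 0.000749). BIRC6, a large IAP, was higher in TNBC (0.24, adjusted p = 0.00512), a call lost with the correction for length alone (0.0578). The other calls described here were each lost without at least 1 library. In COAD, LMNB1 (−0.23), BID (0.27) and BIRC2 (0.20) were lost without control 1, control 2 or Ocoxin 2 (adjusted p from 0.0732 to 0.212), and BID and BIRC2 also without Ocoxin 3 (0.146 and 0.110). In PAAD, CYCS (−0.21), FAS (0.25) and TNFRSF10A (0.24), which encode cytochrome c and 2 death receptors, were lost without control 1, control 2, Ocoxin 1 or Ocoxin 2 (0.0619 to 0.228), and CYCS also without control 3 (0.0681). In TNBC, XIAP (0.17) was lost without control 2 or Ocoxin 1 (0.0560 and 0.0681), TRADD (−0.27) without control 2 or any of the 3 Ocoxin libraries (0.0594 to 0.107), FAS (0.35) without any of the 3 controls, Ocoxin 2 or Ocoxin 3 (0.0542 to 0.127), and DFFA (0.14), the inhibitor of the apoptotic nuclease, without each of the 6 libraries (0.0645 to 0.104).

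On the inflammatory side, CARD8, a sensor that activates CASP1, was at 13, 13.9 and 13 CPM in TNBC controls and 17.4, 19.99 and 19 after Ocoxin (log2 fold change 0.50, adjusted p = 0.000919 with edgeR). In PRAD it was also upregulated (0.41, adjusted p = 0.0312), but that call was lost without each of the 6 libraries (0.0600 to 0.133). IL1B, a substrate of CASP1, was higher in PAAD, at 58.4, 61.9 and 65.7 CPM in controls and 73.1, 78.0 and 86.1 after Ocoxin (0.35, adjusted p = 0.00643), while CASP1 itself was lower. In TNBC, STAT2, which carries interferon signals, was higher (0.27, adjusted p = 0.00563), and IRF1 was lower (−0.20, adjusted p = 0.0101, lost without Ocoxin 1 at 0.0540). PYCARD, the adaptor of inflammasomes, was lower (−0.45, adjusted p = 0.0240, lost without control 1, control 2 or Ocoxin 2 at 0.0582 to 0.118). NLRP1 was higher (0.42, adjusted p = 0.0203), but its call was lost with the replicate block (0.206) and without control 1, Ocoxin 1 or Ocoxin 2 (0.0619 to 0.0684).

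The genes whose levels followed 6 of the caspases most closely across the 18 libraries of COAD, PAAD and TNBC were found with Pearson's r of log2 CPM centred within each line, among 12055 genes with a mean of at least 1 CPM in each line, a limit that CASP1 did not reach in COAD. The libraries share their treatment and scaling, and these are the highest of many values. For CASP2 they were CPSF7 (r = 0.92), CTCF (0.92) and ESPL1 (0.92), for CASP4 COPS4 (0.92) and EXOC4 (0.90), and for CASP6 the pseudogene HMGN1P38 (0.88), PDIA4 (0.88) and BMAL2 (0.87). For CASP8 they were HARS2 (0.80), SNX18 (0.74) and TP53I3 (0.73), for CASP9 SEMA7A (0.82), AKR1B1 (0.79) and EEPD1 (0.77), and for CASP10 SLFN5 (0.92), MOB3C (0.85) and FNBP1 (0.85). Among these 6 caspases, r ran from −0.60, between CASP2 and CASP4, to 0.48, between CASP8 and CASP10. All r values of CASP10 rest in part on low counts in COAD, 28 to 54 per library.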

How the data were processed

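Per the methods and the file headers, the authors cleaned reads with fastp, used STAR for the alignment to hg38, dropped PCR duplicates (picard) and ran featureCounts 2.0.3 per gene. The deposited values are whole counts per gene, not normalized, in a table of PRAD and a table of the other lines. The latter was made with the paired-end option but without counting pairs as fragments, so a fragment mostly gave 2 counts, and neither run used strand, although the kit was stranded. Of 58051 identifiers, 56948 matched a symbol.

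Low genes were removed with filterByExpr and libraries scaled with TMM in edgeR 4.0.16 (R 4.3.3). Groups were compared with its robust quasi-likelihood F-test, two-sided, with p-values adjusted by Benjamini-Hochberg across the genes of each fit and a threshold of 0.05. Levels are CPM, divided by exonic length in kb where genes are compared. The scripts were tested on simulated counts. The members and lists were chosen with earlier results of these data known. Genes beside the members were named if altered, at most 3 per list and line. Alternatives were DESeq2 1.42.0 (also its size factors), no filter, counts halved, a threshold of 0.01, the replicate number as a block, a correction for gene length (spline, 5 degrees of freedom) and one for length and GC content, the latter with and without the block and added after seeing the data, and each library left out. Replicates of a group differed beyond sampling noise. Libraries with the same number deviated together in PAAD (r from 0.31 to 0.62), PRAD (0.18 to 0.60) and TNBC (0.29 to 0.63) over genes of at least 10 CPM, so the numbers were taken to pair them, while in COAD 1 pair had 0.08. Between different numbers the highest r was 0.21 in PAAD and 0.14 in PRAD but 0.35 in TNBC, above 2 of its 3 pairs, and 0.41 in COAD. Some genes that the rules select are not reported here.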

Additional observations from a re-analysis of the deposited data

Results flagged for a closer look

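The response to Ocoxin differed between cell lines for 5 pairs of gene and lines, by the edgeR test of the interaction. The response of CASP2 minus that in COAD was 0.36 on the log2 scale in PAAD and 0.36 in TNBC. For CASP4 the difference of PAAD minus COAD was −0.35. For CASP10 it was −0.70 in PAAD and −1.02 in TNBC, each minus COAD. All share the 6 COAD libraries, and CASP10 had 28 to 54 counts per library there.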

How the results depend on the processing

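Of 1732 values recomputed under an alternative, 1509 kept their direction and their side of the threshold, moved by less than the spread or, for numbers of caspases called, changed little. A change from 2 to 3 in PAAD with the replicate block was taken as little. The 1509 also include genes that were called neither before nor after. Without each library in turn, the number of caspases called ranged from 0 to 2 in COAD, 1 to 2 in PAAD, 0 to 1 in PRAD and 1 to 4 in TNBC, and for the PAAD and TNBC interaction from 0 to 1. The share of all genes called then ranged from 0.669% to 4.33% in COAD, 3.64% to 9.77% in PAAD, 0.0173% to 2.28% in PRAD and 12.9% to 21.8% in TNBC. For the interaction it ranged from 3.14% to 4.95%. At an adjusted p under 0.01, 0 were called in COAD, 1 in PAAD and 1 in TNBC, where 0.81%, 3.29% and 10.2% of all genes were called. The replicate numbers did not pair the COAD libraries, and with the replicate block 2 caspases were called there (CASP10 in addition, adjusted p = 0.0217). In PAAD the block gave 3, and the interaction of PAAD and TNBC had 2 calls with the block, 2 with DESeq2, 2 with counts halved, 1 with the correction for length and GC content and 3 when that was fitted with the block. The block changed no other caspase call. The calls over all genes moved too: with the block from 2.55% to 10.9% in COAD, from 8.33% to 23.1% in PAAD and from 4.56% to 12.5% for that interaction, which had 4.2% with DESeq2, 5.33% with counts halved, 6.12% with the correction for length and GC content and 11.8% with the block added. For that interaction the DESeq2 share is of 37124 genes with any count and the share with counts halved of 18835, while the others are of 21068. The correction for length and GC content together with the block gave 2 in COAD, where it called 14.5% of all genes, and 2 in PRAD. In PRAD, 1 was called with no filter, 1 with the correction for length and 1 with that for length and GC content, where 3.28%, 9.21% and 14.5% of all genes were called and 31.9% with the block added. The share with no filter is of 33271 genes, and the others are of 17070. The cause of these changes was not tested.

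The direction turned for values near 0 and for the CASP1 control difference of TNBC minus PAAD, which was −0.12 in the main fit. With the correction for length and GC content that difference was called with the opposite sign (adjusted p = 0.00396 with edgeR). Corrected for length, CASP8 was −0.0119 in PAAD and −0.0471 in PRAD, and the control differences were −0.0318 for CASP9 (PAAD minus COAD) and 0.0422 for CASP1 (TNBC minus PAAD). Corrected for length and GC content, without and with the block, CASP8 in PRAD was −0.0350 and −0.0349, the CASP1 control difference 0.202 and 0.201, and the PAAD and TNBC interaction −0.00799 and −0.00816 for CASP1 and −0.0232 and −0.0253 for CASP8. With counts halved the CASP2 interaction was 0.00628. Over left-out libraries CASP4 in COAD ranged from −0.000194 to 0.0709, CASP8 from −0.0136 to 0.0301 in PAAD, −0.0332 to 0.0495 in PRAD and −0.00681 to 0.0937 in TNBC, CASP9 in PRAD from −0.0787 to 0.0349, the COAD and TNBC interaction of CASP9 from −0.0134 to 0.0971, and that of PAAD and TNBC from −0.0247 to 0.0161 for CASP2, −0.0207 to 0.0786 for CASP8 and −0.101 to 0.0145 for CASP9.

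The log2 ratio of apoptotic to inflammatory level in controls was 2.36, 0.38 and 2.70 in COAD, PAAD and PRAD without division by length. In COAD it was 1.34, 2.18, 2.43 and 2.43 without CASP2, CASP6, CASP8 and CASP9, and in PRAD 2.29, 2.57, 2.53 and 2.77. Without CASP1, CASP2, CASP4, CASP6, CASP8, CASP9 and CASP10 it was 1.53, −0.27, 0.95, −0.29, −0.12, 0.076 and 0.025 in PAAD, and 1.49, −0.18, 1.35, −0.16, 0.25, 0.24 and 0.26 in TNBC. Without CASP4 no ratio was computed in COAD and PRAD. The correction for length moved the share of higher genes among all called from 57.4% to 48.0% in COAD and from 80.5% to 29.3% in PRAD, and with GC content to 38.8% and 27.9%. The values of CASP1 in COAD and PRAD and of CASP10 in COAD rest on few counts.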
